A study of Mus musculus with 6 samples.

Results

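The genes described here build, transfer and trim the N-linked sugar chains of secreted and membrane proteins. They are 44 genes picked by name, from the dolichol pathway with the Nogo-B receptor gene Nus1 to the Golgi enzymes that finish the chain, out of 54232 genes in the table of the series. Each of the 44 matched 1 row. RNA sequencing gave 6 libraries from livers of mice aged 8 weeks on normal chow: 3 from Nogo-/- mice, called knockout 1, 2 and 4 after their labels, and 3 from wild-type littermates, called wild type 2, 4 and 11. Each library is called a liver here, although the labels do not say that each came from a mouse of its own. Nogo is the product of Rtn4, a protein that shapes the tubules of the endoplasmic reticulum (ER), and the study was set up around the effect of its absence on insulin signalling. The labels do not name the deleted part of Rtn4, the sex of the mice or their strain, and in whole liver fewer cells of a type and less RNA per cell cannot be told apart.

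N-glycosylation begins on a lipid. A cis-prenyltransferase made of DHDDS and the NUS1 protein builds the chain of polyprenol in the ER, as a diphosphate. Polyprenol is then reduced to dolichol and phosphorylated. The ALG enzymes assemble an oligosaccharide on this carrier, first on the cytosolic and then on the lumenal face. Oligosaccharyltransferase moves the finished chain to asparagines of the growing protein. Glucosidases and mannosidases trim it while lectins test the fold, and the Golgi adds branches, galactose and sialic acid. Hepatocytes secrete most plasma glycoproteins and carry a heavy load of this work. NUS1 was named the Nogo-B receptor because it was first described as a binding partner of Nogo-B.

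The libraries held 17654412 to 18118811 counts in knockout and 17568223 to 20902369 in wild type. Rtn4 stood at 4.64, 8.22 and 4.69 CPM in knockout 1, 2 and 4, against 40.5, 52.9 and 56.0 CPM in wild type 2, 4 and 11 (CPM is the gene count over the TMM-adjusted library size). All 6 livers therefore carried the Rtn4 level of their label. The genotypes also differed in make-up. The share of counts from mitochondrial genes was 28.6%, 19.7% and 11.8% for knockout 1, 2 and 4, against 6.17% to 6.90% for the wild-type livers. Of the hepatocyte markers, 0 of 6 changed. Of the tested markers, 4 of 6 for T and NK cells, 5 of 7 for B and plasma cells and 3 of 3 for neutrophils rose, and 4 of 7 for sinusoidal endothelium fell. Over all tested genes, 8.76% rose and 8.29% fell. Some of the immune markers that rose were scarce. Trac had 13, 28 and 14 counts in knockout 1, 2 and 4, against 9, 5 and 8 in wild type 2, 4 and 11. The summed levels were 9.81 to 19.7 CPM in knockout against 3.85 to 5.16 CPM in wild type for the T and NK cell list, and 23.5 to 61.1 against 10.3 to 15.2 CPM for the B and plasma cell list. They were 6.80 to 17.2 against 2.61 to 3.39 CPM for neutrophils and 111 to 178 against 169 to 211 CPM for endothelium. Among Kupffer cell markers 0 of 8 and among stellate cell markers 0 of 8 changed, 1 of 5 cholangiocyte markers fell, and of 5 erythroid markers 1 rose and 1 fell. Each marker had at least 1 count in some library. The part of these differences in the values below was not tested.

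Of the 44 genes, 43 passed the filter on low counts, and knockout differed from wild type in 5 of them (edgeR quasi-likelihood test, Benjamini-Hochberg adjusted p under 0.05 over all tested genes, two-sided). Magt1, Dpm2 and Dpm3 rose, and Alg1 and Mpdu1 fell. This is 11.6% of the tested members, where 17.0% of all 13304 tested genes were called. The order of these shares turned in 2 of 17 alternative fits. Without knockout 4 the shares were 31.8% of the members and 29.4% of all genes, and with no filter on low counts 18.2% and 13.9%. By direction, 8.76% of all tested genes were called higher and 8.29% lower (1165 and 1103 genes). With scaling by library totals, which put the median of all tested genes at −0.16, 690 rose and 1566 fell, and of the members 2 rose and 4 fell. The median log2 fold change, knockout over wild type, was −0.16 over the 43 members and 0.01 over all tested genes. The median of the members was −0.10 without knockout 1, −0.27 without knockout 4 and −0.24 without wild type 11, and with knockout 4 alone against wild type it was −0.01. With the mitochondrial share as a covariate, which cannot be told from genotype here, its sign turned, to 0.11. With all 6 libraries and no covariate, the log2 fold change was positive in 15 members and negative in 28. The 3 knockout levels all lay below the 3 wild-type levels in 6 tested members and all above in 6, while over all tested genes 19.2% lay below and 19.7% above.

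**Figure D1:**
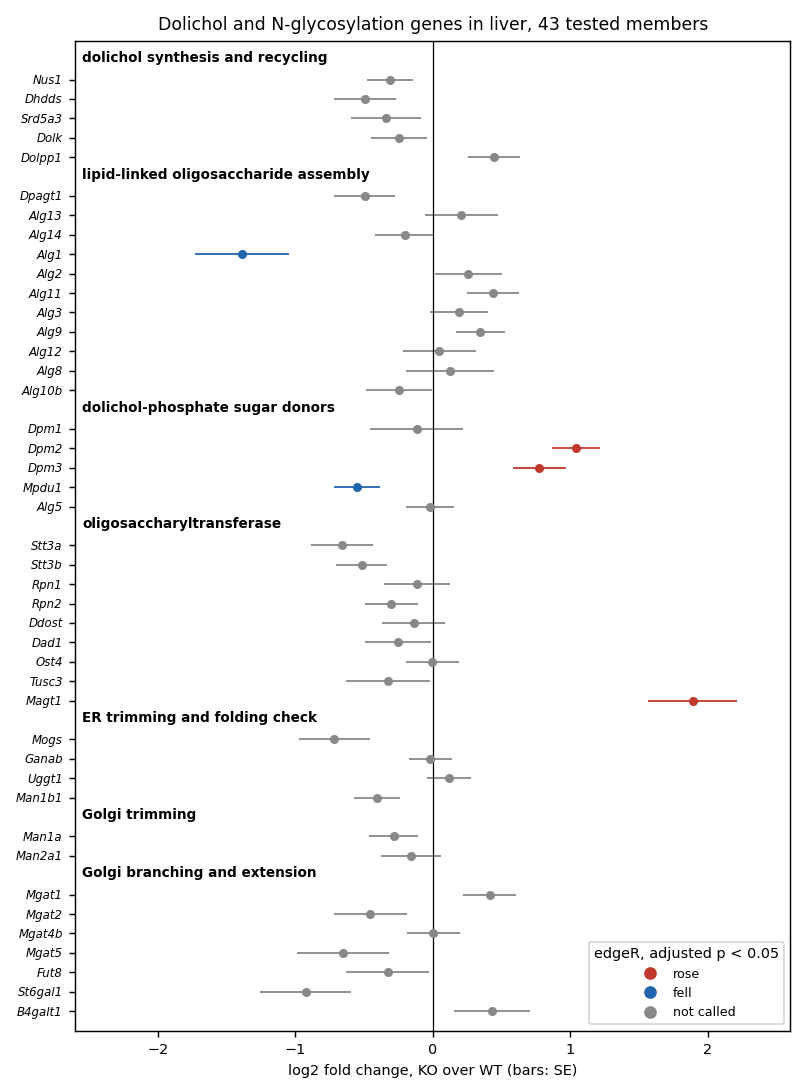
Log2 fold change of the 43 tested members, knockout over wild type (x axis), by role from dolichol synthesis at the top to Golgi extension at the bottom. Points are edgeR estimates from 3 livers a genotype and bars are the standard error. Magt1 lies farthest to the right at 1.89 and Alg1 farthest to the left at −1.39, and 38 members are grey because they were not called.

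The gene that gives the group its link to Nogo, Nus1 (chromosome 10, 52417547 to 52440183, plus strand, mm10), was not called. Its level was 35.5, 43.8 and 37.1 CPM in knockout 1, 2 and 4, against 48.7, 52.1 and 43.6 CPM in wild type 2, 4 and 11. The groups touched: knockout 2 stood just above wild type 11, and the other knockout livers stood below every wild-type liver. The log2 fold change was −0.31 with a standard error (SE) of 0.17 (edgeR, adjusted p = 0.219). It was negative in all 17 alternative fits, from −0.48 to −0.21, and called in 0 of them. Its enzymatic partner Dhdds, the catalytic subunit of the cis-prenyltransferase, read 11.3, 13.9 and 20.4 CPM in knockout, against 22.5, 19.7 and 22.0 CPM in wild type. Knockout 1 and 2 were low and knockout 4 was inside the wild-type range (−0.49 ± 0.23 SE, adjusted p = 0.151). Dhdds was called only without knockout 4 (−0.77, adjusted p = 0.0124).

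The other genes of dolichol supply were not called either. Srd5a3 encodes the reductase that acts on polyprenol, with a log2 fold change of −0.34. Dolk, the dolichol kinase, stood at −0.25. Dolpp1, the phosphatase that recycles the spent carrier, lay the other way at 0.45 (adjusted p = 0.129). Its 3 knockout levels, 14.3 to 20.4 CPM, were all above the 3 wild-type levels, 12.1 to 12.5 CPM. The 5 genes of this step thus held 0 calls, 4 negative values and 1 positive value. Over all 13304 tested genes 17.0% were called and 6529 values were negative.

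Isoprenoid units for dolichol come from the mevalonate pathway. Of 5 genes listed for that supply, 2 fell and 0 rose, and all 5 log2 fold changes were negative (median −1.03). Over all tested genes 8.29% fell and the median was 0.01. Idi1, which isomerises isopentenyl diphosphate, read 2.58, 2.63 and 5.54 CPM in knockout, against 27.5, 46.8 and 21.2 CPM in wild type (−3.15 ± 0.37 SE, edgeR adjusted p = 0.00282). Pmvk, the phosphomevalonate kinase, read 17.6, 15.0 and 18.4 CPM in knockout, against 30.9, 49.5 and 45.4 CPM in wild type (−1.31 ± 0.21 SE, edgeR adjusted p = 0.00628). Both groups stood well apart in both genes, and both genes were called in each of the 6 fits without 1 library. Of the 50-base words of Idi1, 25.3% also occur in other genes, so its count is less certain. Fdps, which makes the farnesyl diphosphate that the cis-prenyltransferase extends, was not called (−1.03, adjusted p = 0.0921), and 26.2% of its words are shared.

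In the assembly of the lipid-linked oligosaccharide 1 of 11 tested genes was called. This is 9.09%, where 17.0% of all tested genes were called. Alg1 (chromosome 16, 5233621 to 5244912, plus strand) encodes the enzyme that adds the first mannose on the cytosolic face. Its level was 3.11, 4.40 and 9.39 CPM in knockout 1, 2 and 4, against 15.0, 15.5 and 13.8 CPM in wild type 2, 4 and 11. The counts behind these levels were 47, 82 and 156 in knockout, against 316, 291 and 298 in wild type. Every knockout liver was below every wild-type liver, and knockout 4 was nearest to them. The log2 fold change was −1.39 ± 0.34 SE (edgeR, adjusted p = 0.0227). In the fits without 1 library it ran from −1.98 to −1.11 and was called in 2 of 6, with the call lost without knockout 1, knockout 2, wild type 2 or wild type 4 (adjusted p = 0.0642, 0.0814, 0.0561 and 0.0673). With knockout 4 alone against wild type it was −0.66 (adjusted p = 0.193). Of its exon length, 17.6% overlaps Eef2kmt on the opposite strand, and the strandedness of the counts is not given. Eef2kmt read 9.81 to 11.4 CPM in knockout against 3.73 to 8.31 CPM in wild type, so the overlapping gene lay the other way (0.88, not called).

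The genes before and after Alg1 in the order of assembly were not called, and no test compared them with Alg1. Dpagt1, which starts the chain by placing GlcNAc phosphate on dolichol phosphate, read 16.7, 15.6 and 26.9 CPM in knockout, against 28.3, 29.5 and 25.6 CPM in wild type. As for Alg1, knockout 1 and 2 were the low livers, while knockout 4 sat inside the wild-type range (−0.50 ± 0.22 SE, adjusted p = 0.146), and Dpagt1 was called without knockout 4 (−0.80, adjusted p = 0.00747). Alg13 and Alg14, the catalytic and anchoring subunits of the transferase for the second GlcNAc, had log2 fold changes of 0.21 and −0.21. Alg2 and Alg11, which add the next mannoses on the cytosolic face, were at 0.26 and 0.44. Alg11 read 25.9 to 36.1 CPM in knockout, above the 19.9 to 25.4 CPM of wild type, without being called (adjusted p = 0.129).

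On the lumenal face the mannosyltransferases Alg3, Alg9 and Alg12 had log2 fold changes of 0.19, 0.35 and 0.05. The wild-type levels of Alg9 were nearly equal, 12.5 CPM in each liver, and the knockout levels of 14.1 to 18.3 CPM all exceeded them (adjusted p = 0.203). Of the glucosyltransferases, Alg8 had a value of 0.12 and Alg10b, which adds the last glucose, −0.25. Alg6, which adds the first glucose, was the member that did not pass the filter, with 0, 7 and 2 counts in knockout 1, 2 and 4, against 12, 9 and 12 counts in wild type 2, 4 and 11. At this depth 3 counts correspond to 0.139 to 0.199 CPM, so its level was close to what the libraries can resolve, and counting error alone is large. Parts of Alg9 (12.9%) and Alg3 (16.2%) overlap genes on the opposite strand.

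Lumenal steps draw mannose and glucose from dolichol phosphate, and 3 of the 5 genes of this supply were called, in opposite directions. Of all tested genes 17.0% were called. Dpm2 (chromosome 2, 32570858 to 32573579, plus strand) and Dpm3 (chromosome 3, 89259358 to 89267079, plus strand) encode the small membrane subunits of dolichol-phosphate mannose synthase, which hold and stabilise the catalytic subunit DPM1. Dpm2 read 28.7, 27.2 and 26.7 CPM in knockout 1, 2 and 4, against 12.4, 12.2 and 15.6 CPM in wild type 2, 4 and 11. The groups were far apart and the knockout livers close together, with means of 27.5 ± 1.08 CPM in knockout and 13.4 ± 1.92 CPM in wild type (SD, n = 3 each). The rise was 2.06-fold, or 1.04 ± 0.18 SE on the log2 scale (edgeR, adjusted p = 0.00735), and it was called in all 6 fits without 1 library.

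Dpm3 read 56.2, 48.4 and 51.1 CPM in knockout, against 29.3, 24.5 and 37.3 CPM in wild type. Again every knockout liver was above every wild-type liver (0.77 ± 0.19 SE, edgeR adjusted p = 0.0235). The call was lost without knockout 1, knockout 2, wild type 2 or wild type 4 (adjusted p = 0.0521 to 0.118) and with scaling by library totals (0.0711). With knockout 4 alone against wild type the log2 fold changes were 0.99 for Dpm2 and 0.75 for Dpm3. Neither gene was called with the mitochondrial share as a covariate, a fit that cannot tell the share from genotype. The catalytic subunit Dpm1 was at 2.09 to 3.19 CPM in knockout and 2.13 to 3.94 CPM in wild type (−0.12 ± 0.34 SE). Its groups overlapped in part. Dpm1 shares 12.1% of its 50-base words with other genes. The chief one is an overlapping gene model on the same strand, at 0 in all 6 libraries. How shared reads were counted is not given, so both the level and the fold change of Dpm1 are uncertain.

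Mpdu1 (chromosome 11, 69656697 to 69662642, minus strand) encodes a membrane protein needed for the use of dolichol-phosphate mannose and glucose. Its level was 32.1, 37.1 and 42.2 CPM in knockout 1, 2 and 4, against 54.8, 55.2 and 53.4 CPM in wild type 2, 4 and 11. All knockout livers were below all wild-type livers, and the wild-type livers were nearly equal. The fall was −0.55 ± 0.17 SE on the log2 scale (edgeR, adjusted p = 0.0476), close to the threshold. It was called in 1 of the 6 fits without 1 library, that without knockout 4 (adjusted p = 0.0132, against 0.0751 to 0.156 in the others). Alg5, which makes dolichol-phosphate glucose, had a log2 fold change of −0.02 and overlapping levels. Per kilobase of exon, Dpm3 was the most abundant gene of the 5, with mean levels of 56.5 CPM per kb in knockout and 33.0 CPM per kb in wild type.

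**Figure D2:**
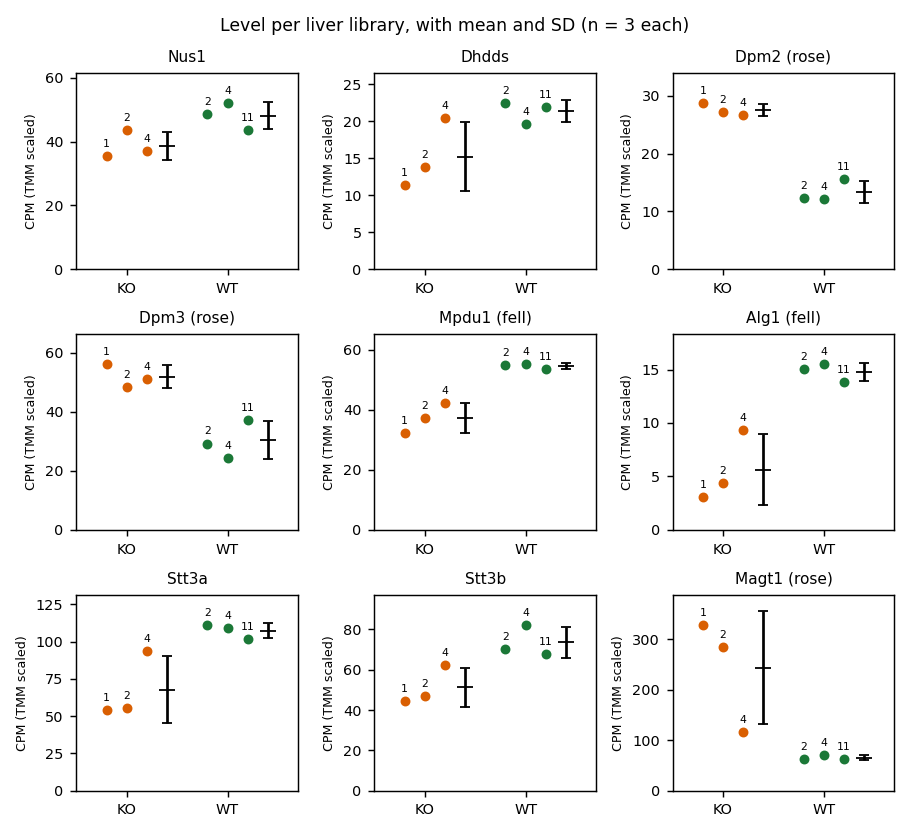
Level of 9 members in each liver in CPM after TMM scaling (y axes start at 0), with knockout left and wild type right. Points are single livers with their label numbers, and the bars beside them are the mean and SD of 3 livers. The knockout points of Dpm2 lie together at 26.7 to 28.7 CPM, while those of Magt1 spread from 117 to 329 CPM.

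Oligosaccharyltransferase exists in 2 forms that share most subunits. STT3A is the catalytic subunit of the form that works at the translocon, and STT3B that of the form that also acts after translation and carries the oxidoreductase MAGT1 or TUSC3. Of the 9 subunit genes measured, Magt1 rose and the other 8 were not called. The 8 log2 fold changes were negative, from −0.66 for Stt3a to −0.004 for Ost4. Their median was −0.28, and −0.25 with Magt1 included. Over all 13304 tested genes 17.0% were called, 6529 values were negative and the median was 0.01. Magt1 (chromosome X, 105968084 to 106011906, minus strand) read 329, 285 and 117 CPM in knockout 1, 2 and 4, against 63.8, 71.3 and 62.2 CPM in wild type 2, 4 and 11. The 3 wild-type livers were close together, knockout 4 was above them, and knockout 1 and 2 were far above. The rise was 3.70-fold, or 1.89 ± 0.33 SE on the log2 scale (edgeR, adjusted p = 0.00775), the largest among the members. It was called in all 6 fits without 1 library, with values of 1.60 to 2.21.

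The size of the rise followed the order of the knockout livers in mitochondrial share, 28.6%, 19.7% and 11.8% in knockout 1, 2 and 4. Against the wild-type mean, the level in log2(CPM + 0.5) was higher by 2.32, 2.11 and 0.83 in these livers. With knockout 4 alone the log2 fold change of Magt1 was 0.83 (adjusted p = 0.106), and with the mitochondrial share as a covariate it was 0.62 (adjusted p = 0.64). In that fit 0 genes of the whole table were called, against 1146 at an unadjusted p under 0.05. Every knockout library had a higher share than every wild-type library, so this fit cannot tell the share from genotype. The part of the share in the rise was not tested. No exon of another annotated gene overlaps Magt1 and 1.55% of its 50-base words occur elsewhere.

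Tusc3, the alternative to Magt1 in the same position of the complex, was scarce and did not mirror it, at 3.58, 6.12 and 3.13 CPM in knockout and 6.46, 4.27 and 5.43 CPM in wild type (−0.33 ± 0.31 SE). Counts of Magt1 exceeded those of Tusc3 by 92.0, 46.6 and 37.3 times in knockout 1, 2 and 4, against 9.88, 16.7 and 11.5 times in wild type 2, 4 and 11. Relative to Stt3b, counts of Magt1 were 7.41, 6.05 and 1.87 times in knockout and 0.91, 0.87 and 0.92 times in wild type. These ratios do not depend on scaling. They were chosen after the values were seen and carry no test.

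Both catalytic subunits lay lower without passing the test. Stt3a read 54.0, 55.5 and 93.9 CPM in knockout, against 111, 109 and 102 CPM in wild type (−0.66 ± 0.23 SE, adjusted p = 0.0692). Stt3b read 44.4, 47.2 and 62.3 CPM in knockout, against 70.4, 82.2 and 67.8 CPM in wild type (−0.52 ± 0.19 SE, adjusted p = 0.0812). In both genes the groups did not overlap, and knockout 4 was nearest to wild type. Stt3a was called without knockout 4 (adjusted p = 0.00178) and in 4 other alternative fits, and Stt3b only without knockout 4 (adjusted p = 0.0124).

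Among the shared subunits the knockout livers disagreed with each other. Ddost, the most abundant member per kilobase in wild type, read 78.9, 73.2 and 130 CPM in knockout 1, 2 and 4, against 105, 94.2 and 112 CPM in wild type. Knockout 1 and 2 were below and knockout 4 above every wild-type liver. Rpn1 and Dad1 showed the same arrangement, with 90.3, 89.1 and 152 CPM for Rpn1 in knockout, against 112, 105 and 143 CPM in wild type, and 59.3, 63.2 and 110 CPM for Dad1 in knockout, against 91.7, 90.1 and 95.8 CPM in wild type. For Rpn2 knockout 4 was inside the wild-type range, at 134 CPM against 130 to 136 CPM, and knockout 1 and 2 were below it. Ost4, the smallest subunit, had a log2 fold change of −0.004, and 53.2% of its exon length overlaps Agbl5 on the opposite strand, which was at 2.47 to 3.73 CPM in knockout and 3.81 to 5.39 CPM in wild type.

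For the 8 subunit genes other than Magt1, the median deviation on the log2 scale was −0.45 for knockout 1, −0.52 for knockout 2 and 0.13 for knockout 4, and −0.03 to 0.04 for the wild-type livers. With all 9, knockout 1 and 2 were each below all wild-type livers in 7 genes, and knockout 4 was below them in 3 and above them in 5. For knockout 1 and 2 this is 77.8% of the subunits below, where 39.3% and 36.1% of all tested genes were. For knockout 4 it is 33.3% below and 55.6% above, where 33.8% and 33.7% of all tested genes were. Further subunits behaved alike in part. Ostc, found with the STT3A form, read 17.2, 18.2 and 49.5 CPM in knockout, against 59.7, 57.3 and 55.1 CPM in wild type, without being called (−1.02, adjusted p = 0.0703). Krtcap2, also of that form, was at 0.57 (adjusted p = 0.0832). Of 4 further subunit and flippase genes 0 were called, where 17.0% of all tested genes were.

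**Figure D3:**
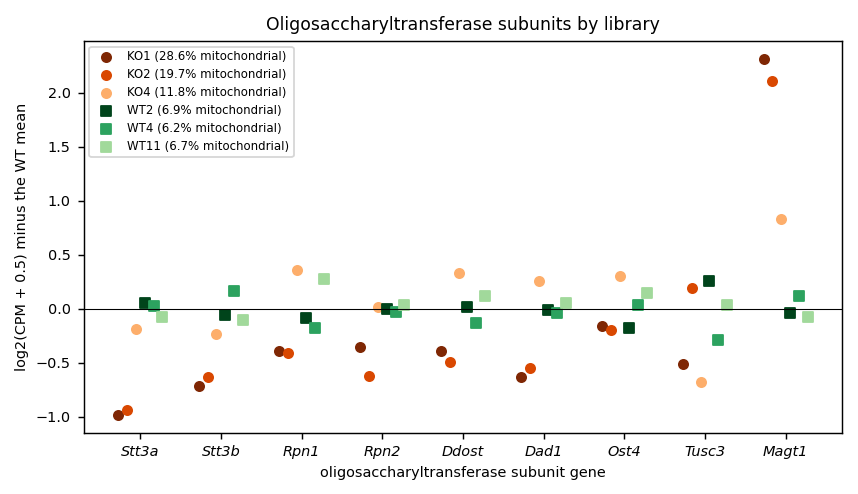
Level of each oligosaccharyltransferase subunit gene in each liver, as log2(CPM + 0.5) minus the wild-type mean (y axis). Circles are knockout and squares wild-type livers, with the mitochondrial share of each library in the legend. For Magt1 all knockout circles lie above the squares, while for Rpn1, Ddost and Dad1 knockout 4 lies above 0 and knockout 1 and 2 below.

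After transfer the chain is trimmed in the ER. Mogs, the glucosidase I that removes the outermost glucose, read 18.7, 20.5 and 38.6 CPM in knockout, against 43.0, 44.5 and 40.4 CPM in wild type. The groups did not overlap and knockout 4 was close to wild type (−0.72 ± 0.26 SE, adjusted p = 0.0806). Mogs was called in 5 of 17 alternative fits, among them the one without knockout 4 (−1.13, adjusted p = 0.00136). Ganab, the catalytic subunit of glucosidase II, was the steadiest gene of the step, at 151 to 155 CPM in knockout and 152 to 160 CPM in wild type (−0.02 ± 0.16 SE). Uggt1, which re-glucosylates chains on misfolded proteins, was at 0.12 ± 0.16 SE. Man1b1, an ER-associated mannosidase, read 24.1, 29.2 and 24.0 CPM in knockout, against 36.1, 34.9 and 31.4 CPM in wild type. All of its knockout levels were below all of its wild-type levels (−0.41 ± 0.17 SE, adjusted p = 0.118).

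Around these enzymes, 8 genes of lectin chaperones, the second glucosidase II subunit and cargo lectins held 1 fall. This is 12.5% called, beside 17.0% of all tested genes. Canx, the membrane lectin calnexin that binds monoglucosylated chains, read 75.3, 130 and 163 CPM in knockout, against 248, 275 and 221 CPM in wild type. Every knockout liver was below every wild-type liver (−1.01 ± 0.26 SE, edgeR adjusted p = 0.027). Calr, the lumenal lectin of the same cycle, was at 0.16 and its partner Pdia3 at 0.01, and neither was called. Of 7 genes that sort misfolded glycoproteins for disposal, Edem1 fell (−0.62, edgeR adjusted p = 0.0494) and Edem2 rose (0.52, edgeR adjusted p = 0.0474). Both encode mannosidase-like proteins of the same family. The 2 calls are 28.6% of this list, where 17.0% of all tested genes were called. In each fit without knockout 1, knockout 2, wild type 2 or wild type 4, Canx, Edem1 and Edem2 were not called. Edem2 was also not called without wild type 11.

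In the Golgi, 0 of 9 members were called, where 17.0% of all tested genes were. Man1a and Man2a1, which trim mannose residues, had mean levels of 199 ± 21.8 and 213 ± 44.6 CPM in knockout, against 243 ± 24.8 and 238 ± 45.5 CPM in wild type (SD, n = 3 each). Their log2 fold changes were −0.29 and −0.16, and the groups overlapped in both genes. For Man1a only knockout 2 reached the wild-type range, at 222.7 CPM against 222.1 CPM in wild type 11. The branching enzymes Mgat1, Mgat2, Mgat4b and Mgat5 had values of 0.42, −0.45, 0.004 and −0.66. Fut8, which adds the core fucose, was at −0.33 from a level of 1.81 to 3.25 CPM over all 6 livers. B4galt1, which adds galactose, was at 0.43.

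St6gal1, the sialyltransferase that caps the chains of liver glycoproteins, had the lowest log2 fold change among the Golgi members. It read 22.0, 43.3 and 31.6 CPM in knockout 1, 2 and 4, against 59.0, 89.4 and 35.7 CPM in wild type 2, 4 and 11. Knockout 2 stood above wild type 11, so the groups overlapped, and the wild-type livers themselves spread widely (−0.92 ± 0.33 SE, adjusted p = 0.0768). It was called in 4 of 17 alternative fits: without wild type 11, with the replicate block, with no filter on low counts and with DESeq2 (adjusted p = 0.000156 to 0.0365). B lymphocytes also express St6gal1, and the summed B and plasma cell markers were higher in knockout, as given above. The part of B lymphocytes in the St6gal1 levels was not tested. Among 10 further Golgi enzymes tested, 1 was called, or 10%, beside 17.0% of all tested genes. It was B4galt3, another galactosyltransferase, which fell (2.86 ± 0.18 CPM in knockout, 5.60 ± 1.44 CPM in wild type, SD, n = 3 each). Of the words of B4galt3, 12.9% are shared with a gene on the opposite strand. The liver receptors for galactose-ended chains, Asgr1 and Asgr2, were at −0.06 and −0.26, not called.

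Donor sugars for all of these steps are made in the cytosol and nucleus. Of 16 tested genes of sugar nucleotide supply, 2 fell and 0 rose. This is 12.5% called, beside 17.0% of all tested genes. Uap1, which makes UDP-GlcNAc, read 18.5, 19.4 and 20.6 CPM in knockout, against 34.4, 38.6 and 24.1 CPM in wild type (−0.73 ± 0.20 SE, edgeR adjusted p = 0.0343). The knockout livers were nearly equal and all below wild type. Gnpnat1, which acetylates glucosamine phosphate in the same route, also fell and was scarce (0.20 to 0.59 CPM in knockout, 1.05 to 1.49 CPM in wild type), and 75.4% of its words are shared, so this value is uncertain. Gmppa, of the GDP-mannose route, was at 0.65 (adjusted p = 0.0522) and Pgm3, of the UDP-GlcNAc route, at −0.99 (adjusted p = 0.0525). Of 5 genes of Golgi nucleotide sugar transporters 0 were called.

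**Figure D4:**
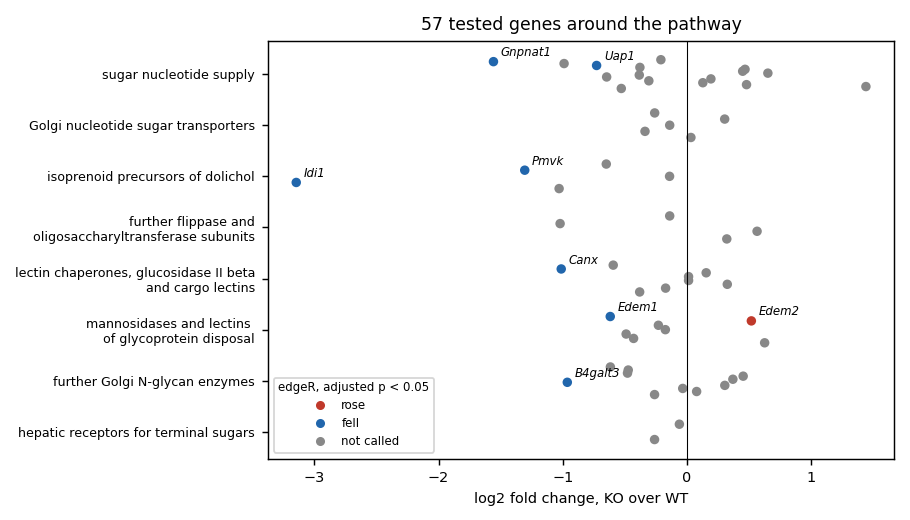
Log2 fold change, knockout over wild type (x axis), of 57 tested genes around the members, in 8 lists (rows). Each point is a gene, and the 8 called genes are named. Most called genes lie left of 0, with Idi1 farthest at −3.15, and Edem2 is the single called gene to the right.

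In all, 57 of 60 genes around the members were tested, 1 rose and 7 fell, or 14.0%, beside 17.0% of all tested genes. The order of these shares turned in 4 of 17 alternative fits: with library totals (21.1% of these genes and 17.0% of all), with no filter on low counts (25% and 13.9%), without knockout 4 (33.3% and 29.4%) and without wild type 11 (14.0% and 12.3%). Their median log2 fold change was −0.21. With mitochondrial genes left out before scaling the split was 2 and 6, with length and GC trends removed 3 and 5, and with library totals 0 and 12. Idi1 and Pmvk were the 2 genes called in each fit without 1 library. Gnpnat1, Uap1 and B4galt3 lost their calls without knockout 1, knockout 2, wild type 2 or wild type 4, and Gnpnat1 also without wild type 11.

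The knockout livers varied more among themselves than the wild-type livers. On the log2(CPM + 0.5) scale the SD was larger in knockout in 34 of 43 members (79.1%), with a median of 0.30 in knockout and 0.15 in wild type. Over all tested genes it was larger in knockout in 66.6%, with medians of 0.28 and 0.20, also knockout first and wild type second. Against the wild-type range, knockout 1, 2 and 4 were below it in 25, 19 and 14 members and above it in 10, 11 and 15. In shares of the members this is 58.1%, 44.2% and 32.6% below and 23.3%, 25.6% and 34.9% above. Over all tested genes the shares in knockout 1, 2 and 4 were 39.3%, 36.1% and 33.8% below and 38.8%, 38.0% and 33.7% above. Taken over the 43 members, the median deviation was −0.35 for knockout 1, −0.19 for knockout 2 and 0.02 for knockout 4, so the lower median came from knockout 1 and 2. For Dpm2 and Dpm3 the 3 knockout livers lay close together, at 0.98 to 1.08 and 0.69 to 0.90 above the wild-type mean on the log2 scale. For Nus1 and Man1b1 knockout 2 was the liver nearest to that mean, at −0.13 and −0.22.

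**Figure D5:**
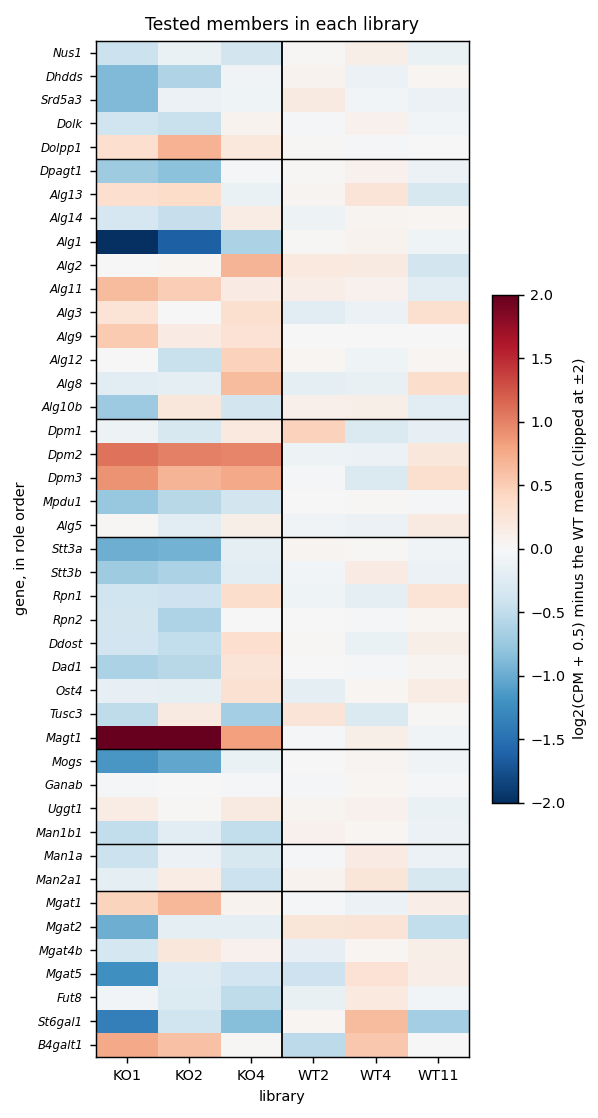
Each tested member (rows, in role order) in each liver (columns, knockout left of the line), as log2(CPM + 0.5) minus the wild-type mean, red above and blue below. The colours of knockout 1 and 2 are alike and those of knockout 4 are paler in many rows, while Dpm2 and Dpm3 are red in all 3 knockout columns.

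Exon length and base composition were compared with the fold changes as a description. Across the 43 members Spearman's rho between exon length and log2 fold change was −0.17, and across 13295 tested genes with a length it was −0.11. These are correlations across genes of the same 6 libraries. For GC content the values were 0.03 and 0.15, members first. The 3 genes that rose ranged from 919 bases of exon for Dpm3 through 1971 for Dpm2 to 4672 for Magt1. With length and GC trends removed, Dpm3 was at 0.60 (adjusted p = 0.0349), Dpm2 at 1.01 and Magt1 at 1.95, all still called.

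Promoter windows, from 250 bases before to 50 after the start of a gene, were found in RefSeq (GRCm38.p6) for 39 of the 44 members and searched on both strands for elements through which ER stress factors act on genes of protein folding and glycosylation. The full ER stress element, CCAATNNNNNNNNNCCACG, occurred in 1 member, Alg12, and in 0.137% of all 27025 genes with a window. In Alg12, a gene with no called difference, it lies 220 to 202 bases before the start (chr15:88819520-88819538, minus strand).

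Alg12: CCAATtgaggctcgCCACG

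The ER stress element II, ATTGGNCCACG, and the unfolded protein response element, TGACGTGG, occurred in 0 of the 39 members and in 0.0444% and 0.714% of all genes. The shorter parts CCAAT and CCACG are frequent: CCAAT occurred in 22 of 39 members (56.4%) against 41.1% of all genes, and CCACG in 23 of 39 (59.0%) against 35.5%. All 3 longer elements contain CCACG on one strand or the other, and the ER stress element and its form II also contain CCAAT. The windows of Nus1, of Magt1 as the largest rise, and of Dpm2 and Dpm3, whose products sit in the same enzyme and which both rose, are shown with each CCAAT and CCACG, on either strand, in capitals. Magt1 (chrX:106011753-106012052, minus strand) holds CCAAT 4 times and no CCACG, and Nus1 (chr10:52417297-52417596, plus strand) holds CCAAT 2 times and CCACG 1 time. Dpm2 (chr2:32570608-32570907, plus strand) and Dpm3 (chr3:89266211-89266510, plus strand) hold none of the letters searched. The GENCODE model of Dpm3 begins before this RefSeq start. The windows of Alg1 and Mpdu1, the called members that fell, are not shown. Alg1 holds CCACG 1 time and no CCAAT, and Mpdu1 holds neither.

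Nus1: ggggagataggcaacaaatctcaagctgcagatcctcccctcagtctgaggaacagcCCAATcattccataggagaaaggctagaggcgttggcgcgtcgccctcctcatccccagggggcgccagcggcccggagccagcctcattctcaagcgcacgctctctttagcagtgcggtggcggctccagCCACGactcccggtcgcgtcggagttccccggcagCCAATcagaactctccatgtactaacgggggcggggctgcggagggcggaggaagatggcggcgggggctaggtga

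Magt1: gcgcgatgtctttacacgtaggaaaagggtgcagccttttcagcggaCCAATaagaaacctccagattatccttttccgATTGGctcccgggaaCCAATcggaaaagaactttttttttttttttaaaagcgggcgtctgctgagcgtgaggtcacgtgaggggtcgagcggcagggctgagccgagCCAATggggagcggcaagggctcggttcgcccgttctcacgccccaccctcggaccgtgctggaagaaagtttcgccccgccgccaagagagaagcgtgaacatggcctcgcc

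Dpm2: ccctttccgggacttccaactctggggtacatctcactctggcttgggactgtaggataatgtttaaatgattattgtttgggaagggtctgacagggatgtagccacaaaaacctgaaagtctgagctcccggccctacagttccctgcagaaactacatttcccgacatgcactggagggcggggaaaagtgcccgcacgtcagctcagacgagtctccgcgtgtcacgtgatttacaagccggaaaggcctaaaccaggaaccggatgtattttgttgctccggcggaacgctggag

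Dpm3: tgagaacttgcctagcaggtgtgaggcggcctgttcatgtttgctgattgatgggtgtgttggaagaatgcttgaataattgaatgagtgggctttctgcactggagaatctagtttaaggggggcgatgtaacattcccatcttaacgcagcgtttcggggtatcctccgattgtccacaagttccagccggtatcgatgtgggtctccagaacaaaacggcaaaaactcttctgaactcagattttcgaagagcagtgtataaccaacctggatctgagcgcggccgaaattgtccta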

How the data were processed

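Whole-number counts for each gene and each of 6 liver libraries come from the table the authors deposited. RNeasy columns (Qiagen) and a SMARTER library kit for mRNA were used, per the labels' protocols. The genome build named in the submitters' processing notes is mm10. The aligner, the counter and its use of strand and of reads with several matches were not given in the labels. Counts were tested in edgeR 4.0.16 (R 4.3.3) with the quasi-likelihood F test, TMM scaling and filterByExpr, on 3 knockout against 3 wild-type libraries without covariates. P-values were adjusted over all 13304 tested genes. The SE was taken as the size of the log2 fold change over the root of the F statistic. Of 54232 identifiers, 54079 were found in GENCODE M21, which gave coordinates, exon lengths and words of 50 bases shared between genes. Alternatives used DESeq2 1.42.0 and limma 3.58.1. The edgeR test was tested on simulated data. Rtn4, Nus1, Dhdds and all called genes of the lists were to be named, and Dpagt1, Stt3a, Stt3b, Mogs, St6gal1 and the other genes not called were described with their values seen. Members and lists were chosen with earlier results of these data known. Within a genotype, each pair of libraries differed beyond sampling noise (chi-square over degrees of freedom, 21.0 to 170.6), so each counted as 1 sample. Nothing says that the libraries of a genotype came from separate mice, so p-values measure only the spread between these libraries, which may be technical. Floors of 3 counts cover counting error only.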

Additional observations from a re-analysis of the deposited data

How the results depend on the processing

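The 5 members called were also the 5 called with RLE scaling, with mitochondrial genes left out and with a filter of 1 CPM in 3 libraries. Without 1 library, 2 to 14 members were called: Dpm2 and Magt1 alone without knockout 1, knockout 2, wild type 2 or wild type 4, and 14 without knockout 4. Over all genes 630 to 4046 were called in these fits (804, 979 and 4046 without knockout 1, 2 and 4, 827 and 630 without wild type 2 and 4), and 2 to 19 of the genes around the members. Members called numbered 8 with no filter on low counts and 8 with DESeq2, which added Mogs, St6gal1 and Stt3a in both, and genes around them 15 with no filter. With the mitochondrial share as a covariate, 0 members, 0 genes around them and 0 of all genes were called by edgeR (2, 5 and 1146 at an unadjusted p under 0.05), and the median of the members was 0.11. With knockout 4 alone against wild type, an alternative chosen after the data were seen, the counts were 0, 0 and 25 (6 and 14 at an unadjusted p under 0.05 for members and genes around them); that fit takes the spread from wild type alone. The mitochondrial share was higher in every knockout than in every wild-type library, so the covariate fit cannot tell it from genotype. The cause was not tested. Values of members not called changed sign in 66 of 731 alternative values, from −0.26 to 0.44, in 24 genes, with adjusted p of 0.344 or more. The labels share the numbers 2 and 4 between genotypes, and nothing says that they mark a pair: deviations correlated at −0.06 and 0.07. With these numbers as a replicate block 5 members were called, St6gal1 in place of Mpdu1, 7 genes around them and 1686 of all genes. A library of this depth resolves no level below 0.139 to 0.199 CPM, which limits Alg6.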
